A study of Mus musculus with 4 samples.

Results

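In freshly isolated mouse chondrocytes, 2456 sites at the ends of protein-coding genes were open in both libraries and had no peak in either library of cells kept through 8 passages. A site is a stretch of overlapping ATAC-seq peaks, joined over the 4 libraries wherever they shared at least 1 bp, and it counts as a gene-end site when it lies within 1 kb of the start or the far end of a protein-coding gene. The P0 only sites were chosen by the peak calls themselves, so their presence at P0 and absence at P8 is the rule and not a result. They made up 10.1% of the 24346 gene-end sites on chromosomes 1 to 19 and X. Over all 170325 merged sites, 29155 (17.1%) met the same rule on libraries, of which 14279 lay in gene bodies and 12420 between genes. The opposite pattern, a peak in both P8 libraries and in neither P0 library, was found at 134 gene-end sites (0.55%).

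ATAC-seq, which cuts and tags accessible DNA with the transposase Tn5, was run on chondrocytes from knee cartilage of C57BL/6 mice aged 0 to 4 days. P0 cells were primary chondrocytes held in culture for less than 24 h. P8 cells had been passaged 8 times in DMEM/F12 medium with 10% fetal bovine serum, seeded at 24000 and collected at 48000 cells per cm2. Each passage had 2 libraries, called A and B here because the peak names carry no replicate number, and nothing in the labels says whether they came from separate mice or cultures, so spreads between libraries may be technical. A peak list cannot tell fewer open cells from less opening per cell.

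Chondrocytes build cartilage by secreting type II collagen and the proteoglycan aggrecan, and when grown on plastic they flatten and lose this programme, a change called dedifferentiation. The DNA around the start of a gene holds its promoter, where transcription factors and RNA polymerase assemble on a stretch kept free of nucleosomes. Promoters rich in CpG dinucleotides are open in most cell types, whereas those poor in CpG tend to be open in a tissue-restricted way. Open DNA just past the far end of a gene can be an enhancer, a terminator region or the promoter of a neighbour.

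Reference promoters of 6 genes are printed to show the DNA under P0 only peaks that overlapped an annotated gene start or the bases before it. Each is the run of 250 bases before an annotated start, 5′ to 3′ on the strand of the gene, from RefSeq (GRCm38.p6). For Adarb2 and Slco4c1 that start lies inside the gene limits used for distances, by which the genes start at 8202526 and 96872193. The Adarb2 window thus lies wholly inside the gene. The genes were taken in order of P0 peak strength from the 12 strongest P0 only sites (Apela, Slco4c1 and Adarb2) and from sites at listed genes (Matn1, Cxcl3 and Ibsp). The sites at listed genes were weaker than many sites at other starts. Matn1 encodes matrilin-1, a cartilage matrix protein, and Ibsp encodes bone sialoprotein of mineralizing tissue. Cxcl3 encodes a chemokine that attracts neutrophils, Apela a peptide ligand of the apelin receptor, Slco4c1 an organic anion transporter and Adarb2 a relative of the RNA-editing deaminases. The P0 only site held all 250 printed bases for Matn1, Apela, Slco4c1 and Adarb2, 143 of them for Ibsp and 76 for Cxcl3. Capitals mark letters searched on both strands, namely GGGCGG as a GC box of housekeeping promoters, TATAAA as a TATA box, CCAAT as the box of that name, TGTGGT as a site of RUNX factors, ACAAAG as one of SOX factors, GGAATG as one of TEAD factors, TTGGCA as one of NFI factors and CACGTG as an E-box.
Matn1, chr4:130944135-130944384, plus strand: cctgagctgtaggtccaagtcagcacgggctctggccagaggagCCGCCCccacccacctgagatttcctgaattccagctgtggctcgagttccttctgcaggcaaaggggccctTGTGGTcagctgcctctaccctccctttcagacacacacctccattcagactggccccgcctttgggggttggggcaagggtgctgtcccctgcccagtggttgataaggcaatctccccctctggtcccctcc
Ibsp, chr5:104299037-104299286, plus strand: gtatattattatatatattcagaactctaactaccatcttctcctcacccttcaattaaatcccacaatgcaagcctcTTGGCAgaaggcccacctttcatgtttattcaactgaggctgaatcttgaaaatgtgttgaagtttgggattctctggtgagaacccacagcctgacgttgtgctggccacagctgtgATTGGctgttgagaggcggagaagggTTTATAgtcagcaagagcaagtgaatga
Cxcl3, chr5:90785851-90786100, plus strand: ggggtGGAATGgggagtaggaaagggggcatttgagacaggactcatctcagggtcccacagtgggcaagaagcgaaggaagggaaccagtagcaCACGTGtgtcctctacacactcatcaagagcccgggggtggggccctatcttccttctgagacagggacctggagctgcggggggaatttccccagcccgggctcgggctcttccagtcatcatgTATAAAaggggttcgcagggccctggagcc
Apela, chr8:65037337-65037586, minus strand: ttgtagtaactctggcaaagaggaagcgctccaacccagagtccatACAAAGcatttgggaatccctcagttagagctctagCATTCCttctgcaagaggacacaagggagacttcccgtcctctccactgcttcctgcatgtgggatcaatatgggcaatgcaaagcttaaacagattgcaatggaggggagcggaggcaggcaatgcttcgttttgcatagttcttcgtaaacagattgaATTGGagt
Slco4c1, chr1:96872172-96872421, minus strand: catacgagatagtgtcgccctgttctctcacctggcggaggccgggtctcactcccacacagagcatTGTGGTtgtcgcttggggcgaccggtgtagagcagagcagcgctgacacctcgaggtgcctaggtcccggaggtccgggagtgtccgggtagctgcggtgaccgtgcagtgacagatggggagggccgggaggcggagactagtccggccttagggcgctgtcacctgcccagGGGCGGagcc
Adarb2, chr13:8202616-8202865, plus strand: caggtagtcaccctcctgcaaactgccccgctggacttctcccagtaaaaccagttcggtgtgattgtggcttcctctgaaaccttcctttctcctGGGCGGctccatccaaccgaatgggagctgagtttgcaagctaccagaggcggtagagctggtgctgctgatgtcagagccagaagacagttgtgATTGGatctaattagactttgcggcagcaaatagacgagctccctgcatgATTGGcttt
These matches are descriptions of the letters and not of binding. Matn1 carried a GC box and a TGTGGT match whose first bases lay at -206 and -134 from the start. Ibsp and Cxcl3 each held a TATA box, at -28 and -30. The TATA box and E-box of Cxcl3 and the NFI match of Ibsp lay outside the P0 only site. The CpG content of the 6 differed, with an observed over expected CpG ratio from 0.168 for Ibsp to 0.707 for Slco4c1.

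The peak lists held 145703 and 119974 peaks for P0 A and P0 B, and 89610 and 99784 for P8 A and P8 B. The genome-wide background, which tracks depth, was 194 and 162 tags per 10 kb at P0 and 140 and 134 at P8, so the P0 libraries were the deeper ones. The lowest pileup of a called peak was 6 tags in all 4 libraries. All 10 chondrocyte marker genes had a gene-end peak in both P0 libraries and 8 of 10 in both P8 libraries. Of 8 markers in each of the other lists, from 3 to 7 had a gene-end peak in P0 A and from 2 to 6 in P8 A, with fibroblast markers the most in both. Ptprc, Csf1r, Adgre1, Itgam and Tyrobp of the blood list, Pecam1, Cdh5, Vwf and Emcn of the endothelial list and Myf5, Ttn and Pax7 of the muscle list had none in any library. The same held for Dpt of the fibroblast list. The highest gene-end pileup at Col2a1, the type II collagen gene, was 93 and 90 tags at P0 against 34 and 41 at P8. The highest at Col1a1, the type I collagen gene of fibroblasts, was 22 and 17 tags at P0 against 18 and 23 at P8. These 2 pairs of unscaled values overlapped. Neither of the 2 Col1a1 gene-end sites was open in all 4 libraries, so the highest values may come from different sites. The authors name Col1a1 among genes with more accessible regions near promoters at P8. In the order P0 against P8, the highest pileups were 48 and 47 against 15 and 13 at Acan and 57 and 54 against 10 and 12 at Col9a1. They were 66 and 58 against 21 and 19 at Col11a2, and 52 and 47 against 30 and 32 at Sox9. At Fn1 they were 72 and 67 against 41 and 37, and at Col1a2 34 and 37 against 30 and 33. Tags are not scaled for depth, and gene-end sites open in all 4 libraries had a median P8 pileup of 0.602 times the P0 pileup.

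P0 only peaks were weak beside those of gene-end sites open in all 4 libraries. Pileup is the number of tags stacked at a peak's summit, and fold enrichment is that pileup over the local background of the same library. The median pileup of the 2456 sites was 15 tags in P0 A (range 6 to 53) and 13 in P0 B (6 to 49), against 44 and 38 in the same libraries at the 13792 gene-end sites open throughout. Their median fold enrichment was 4.52 and 4.58, against 9.04 and 9.44. The sites were also narrow, with median peak widths of 191 and 151 bp against 681 and 605 bp. The local background under them was 1.51 and 1.44 times the genome-wide one, against 2.65 and 2.55 times at sites open throughout.

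**Figure D1:**
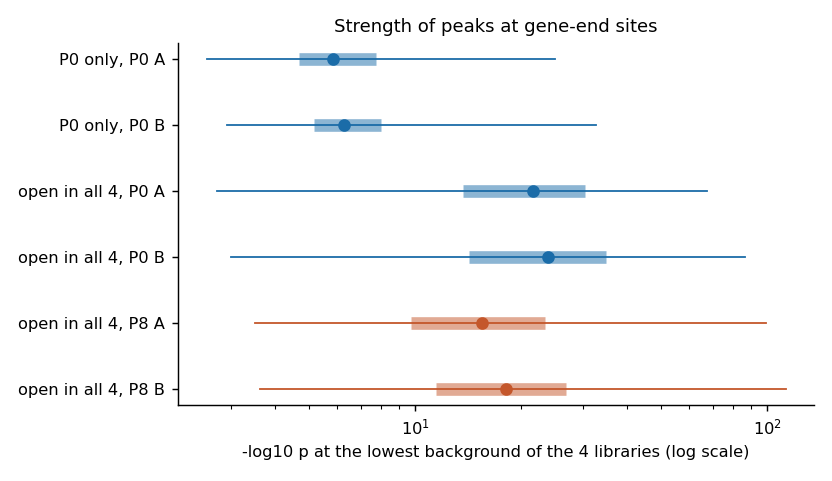
Strength of peaks at gene-end sites, as the -log10 p against a Poisson background set to the lowest of the 4 libraries (log axis). Points are medians, thick bars the middle 50% of sites and thin lines the full range. The P0 only sites have medians of 5.85 and 6.29, and the P0 libraries at sites open in all 4 reach medians of 21.6 and 23.8.

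Because the libraries differed in depth, the -log10 p of each peak was also computed at the lowest background of the 4. On that scale 2371 P0 only sites (96.5%) still reached 3.38, the strictest of the lowest values deposited in the 4 lists, 561 reached 7, 158 reached 10 and 5 reached 20. Gene-end sites open throughout had a median P8 pileup, not scaled for depth, of 0.602 times the P0 pileup, and 97.6% of them were lower at P8. In fold enrichment, a ratio within each library, the median was 0.860 times and 82.1% were lower at P8. Scaled by the pileup ratio, the median P0 only pileup of 13.9 tags (geometric mean of both libraries) becomes 8.34, and 390 sites (15.9%) fall under the 6 tags of the lowest called peak. For the other 2066 the scaled value was at or over 6 tags. A peak on a higher local background needs more than 6 tags to be called, and the ratio came only from sites that kept P8 peaks. The split at 6 tags is thus a description and not a count of the sites under the calling limit. The peak lists hold no value where no peak was called, and how far depth set the absence of a P8 peak at single sites was not tested.

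The sites nearest the limits of the rule were as follows. The weakest P0 only sites, at Zbtb16, Ltb and Olfr1347, had smaller -log10 p values from 2.56 to 2.59 at the lowest background. The farthest from a gene end lay at Ap3d1 (999 bp), Gtf2a1 (998 bp) and Pard6g (998 bp), and the first sites beyond the limit lay at Slit1 (1003 bp), Ankrd37 (1003 bp) and Tbx4 (1004 bp). Sites at Rai2, Dhx30 and Gm45521 had both P0 peaks and were left out for a P8 peak with a -log10 p of 3.44, 3.44 and 3.58. In all, 1798 gene-end sites had both P0 peaks and a peak in 1 P8 library, 588 of them in P8 A and 1210 in P8 B. A further 4087 had a peak in 1 P0 library and in neither P8 library.

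The share of P0 peaks without a P8 peak depended on strength and on position. Of the 18046 gene-end sites with both P0 peaks, 13.6% had no P8 peak, against 32.6% in gene bodies and 33.0% between genes. Among the weakest, with a smaller -log10 p under 5 at the lowest background, the shares were close, at 61.3% (95% Wilson interval 59.0 to 63.6), 66.4% (65.4 to 67.4) and 65.1% (64.0 to 66.2). From 10 to 15 they were 5.44% (4.61 to 6.41) at gene ends, 14.1% (13.3 to 14.9) in gene bodies and 15.1% (14.3 to 16.0) between genes. At 20 and over, 5 of 7275 gene-end sites (0.0687%) had no P8 peak, against 56 of 5010 in gene bodies (1.12%). The intervals cover counting error over sites of the same libraries only. Gene starts had the lowest shares in every class of strength.

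**Figure D2:**
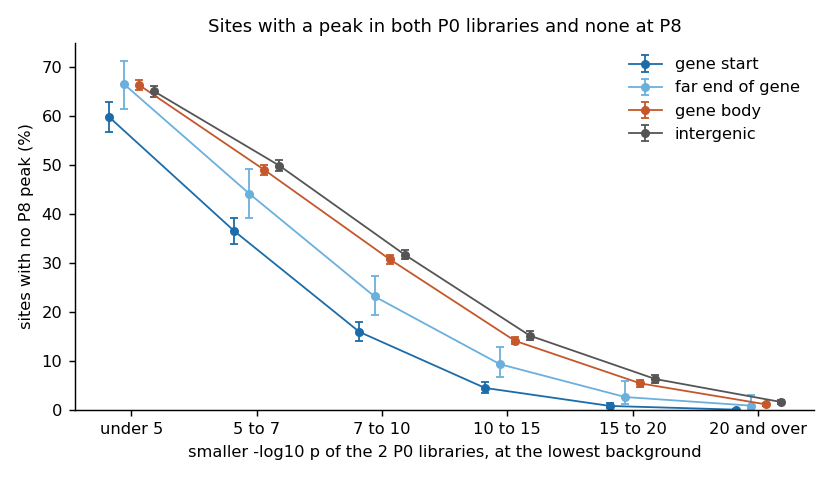
Percentage of sites with a peak in both P0 libraries that had none at P8 (vertical axis), by the smaller P0 -log10 p at the lowest background (horizontal axis). Points are shares and bars 95% Wilson intervals; gene starts fall from 59.9% to 0.0351%, and far ends, gene bodies and intergenic sites lie above them in each class.

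P0 only sites lay at the far end of genes more often than sites open throughout. The strand, and so which end is the start, was known for 1913 of the 2456 sites. Of these, 1376 (71.9%, 95% Wilson interval 69.9 to 73.9) were at a gene start and 537 (28.1%) at a far end. At sites open in all 4 libraries the start took 90.5% (89.9 to 91.0), and at P8 only sites 64 of 104 (61.5%, 51.9 to 70.3). At starts, 28.5% of P0 only sites had their midpoint within 200 bp of the start, 51.9% lay farther inside the gene and 19.6% farther upstream. The site covered the start itself in 25.0% of cases, against 76.8% for sites open throughout. At far ends 6.15% of P0 only sites covered the end and 16.0% of those open throughout.

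**Figure D3:**
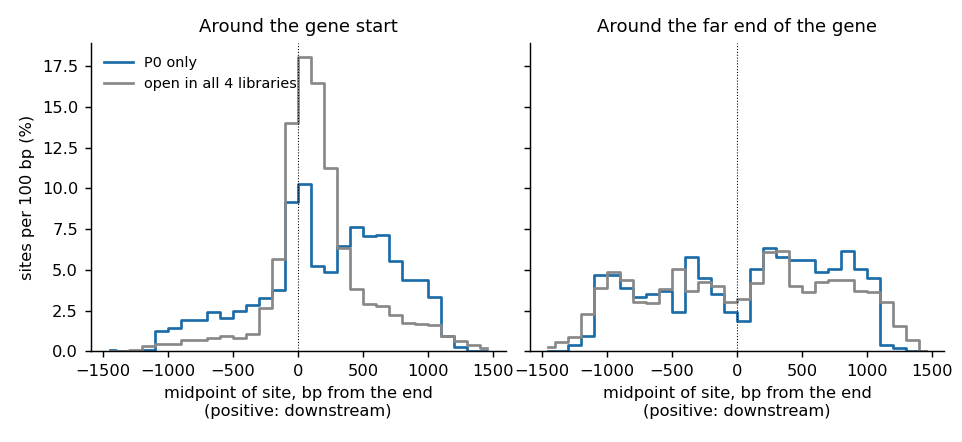
Midpoints of sites around gene starts (left) and far ends (right), as the percentage of sites per 100 bp against distance in bp, positive values lying downstream. At starts, 54.3% of sites open in all 4 libraries (grey) and 28.5% of P0 only sites (blue) lie within 200 bp; at far ends, 14.5% and 12.8% do.

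Part of the P0 only sites lay beside DNA that kept a P8 peak. Of the 2456, 1085 (44.2%) had a site with a P8 peak within 1 kb, while 20.9% were over 10 kb from one. The same shares were not computed for other gene-end sites, so whether these are high or low is not known. The share of gene-end sites that were P0 only ran from 7.61% to 12.9% over the chromosomes, and X, with 102 of them, had the highest.

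Of the 15108 protein-coding genes with a gene-end site, 2392 (15.8%) had at least 1 P0 only site. Single sites were the rule, with 2137 genes having 1, 234 having 2 and 21 having 3 or 4. At 1615 of the genes another gene-end site had a P8 peak. The other 777 (5.14% of the 15108 and 32.5% of the 2392) had no P8 peak left at either end. Counts of such genes in the lists below are to be read beside that 32.5%. Because 208 sites lay within 1 kb of more than 1 gene, a site was counted for each of them.

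Genes of the cartilage matrix held P0 only sites in small numbers. P0 only sites lay at 3 of 7 cartilage collagen genes (42.9%, 95% Wilson interval 15.8 to 74.95) and 8 of 23 proteoglycan and glycoprotein genes (34.8%, 18.8 to 55.1), against the 15.8% of all genes. These genes also had more gene-end sites each, 2.00 and 2.30 on average against 1.86 over all genes with one. Per site, 3 of 14 (21.4%, 95% Wilson interval 7.57 to 47.6) and 9 of 53 (17.0%, 9.20 to 29.2) were P0 only, and both intervals hold the 10.1% of all gene-end sites. These genes had been studied in the same libraries before, so their counts are not independent evidence of a direction.

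Among the collagens, Col9a3, a chain of the type IX collagen that coats type II fibrils, had a site over an end at chr2:180597734-180598393. Its pileup was 47 tags in P0 A and 44 in P0 B, and its fold enrichment 4.22 and 4.65. At Col27a1, a fibrillar collagen of growth-plate cartilage, the site covered the gene start with 51 and 39 tags and 3.83- and 3.80-fold enrichment. Col27a1 had no P8 peak at either end. The Col2a1 site, 627 bp outside the gene, had 48 and 41 tags but only 2.23- and 2.45-fold enrichment, since the local background there was high. Col2a1 kept other gene-end sites open in all 4 libraries.

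Matn1 had the strongest of the proteoglycan and glycoprotein sites. At chr4:130944021-130944427, which takes in the promoter printed above, its pileup was 44 tags in P0 A and 43 in P0 B, with 4.78- and 5.65-fold enrichment. Ucma, a small secreted protein of young cartilage, had a site over its start with 23 and 20 tags and 5.25- and 5.61-fold enrichment. Snorc, a chondrocyte transmembrane proteoglycan, had 29 and 30 tags and 2.77- and 3.25-fold enrichment. These 3 genes had no P8 peak at either end. The Acan site lay 548 bp beyond the far end of the aggrecan gene, at chr7:79115647-79116267, and was also within 1 kb of Hapln3, a link protein gene. It had 43 and 40 tags and 2.94- and 3.27-fold enrichment. Comp, a cartilage glycoprotein that binds collagen, had 2 such sites with pileups from 29 to 36 tags and enrichment from 2.34- to 2.53-fold. Chad (33 and 24 tags), Edil3 (11 and 10) and Matn4 (16 and 11) made up the rest.

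Chondrocyte transcription factors had P0 only sites at 8 of 29 genes (27.6%, 14.7 to 45.7), against 15.8% of all genes. They had 2.345 gene-end sites per gene, against 1.86 over all genes with one. In this list 10 of 68 sites (14.7%, 8.19 to 25.0) were P0 only, with an interval that held the 10.1% of all gene-end sites. The median smaller -log10 p of these 10 at the lowest background was 4.91, against 5.34 over all P0 only sites. Runx1, a RUNX factor of early chondrogenic cells, had a site 718 bp inside its start with 22 and 20 tags and 4.49- and 5.36-fold enrichment. Sox5, a partner of Sox9 on cartilage genes, had one 365 bp inside its start with 13 and 13 tags and 4.52- and 5.18-fold enrichment. Foxa2 was the one gene of the list with no P8 peak left at either end, and its site had 27 and 20 tags. The others were Creb5, Nfib, Runx3, Shox2 and Trps1, with pileups from 7 to 28 tags. At Sox9 itself none of the 4 gene-end sites was P0 only, and 3 were open in all 4 libraries.

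Hypertrophic and osteogenic genes had sites at 3 of 13 genes (23.1%, against 15.8% of all genes), and 4 of 28 sites (14.3%, 5.70 to 31.5) were P0 only, with an interval that held the 10.1% of all gene-end sites. The Ibsp site covered its start at chr5:104299144-104299426, with 16 and 18 tags and 7.04- and 8.70-fold enrichment, on a low local background. No P8 peak was listed at either end of Ibsp. Vegfa, the angiogenic growth factor of hypertrophic cartilage, had 2 sites, with 33 and 27 tags at the stronger. Alpl, the phosphatase needed for mineral deposition, had a weak site of 10 and 13 tags.

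Growth-plate signals were grouped in 3 lists. In the hedgehog and PTHrP list, 3 of 13 genes had a site (23.1%, against 15.8% of all genes), and 3 of 29 sites (10.3%, 3.58 to 26.4) were P0 only, against 10.1% of all gene-end sites. Hhip, which binds and blocks hedgehog ligands, had one over its start with 15 and 15 tags and 5.66- and 6.21-fold enrichment. Ptch1, the hedgehog receptor, had 15 and 15 tags at 188 bp outside its start, and Gli2, a transcription factor of the pathway, 20 and 16 tags at only 2.65- and 2.61-fold. Hhip had no P8 peak at either end.

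In the BMP, GDF and TGF-beta list, 11 of 36 genes (30.6%, 18 to 46.9) had a site, against 15.8% of all genes. Per site, 12 of 88 (13.6%, 7.98 to 22.3) were P0 only, with 2.50 gene-end sites per gene. Ligands among them were Bmp5, Bmp6, Gdf5 and Gdf6, whose pileups ran from 9 to 18 tags. Chrdl2, a secreted BMP antagonist, had the strongest site, with 19 and 18 tags and 7.68- and 8.53-fold enrichment. Its relative Chrdl1 had 19 and 10 tags and 8.28- and 5.03-fold enrichment. The 2 TGF-beta receptor genes Tgfbr2 (29 and 18 tags) and Tgfbr3 (16 and 14), the signal transducer Smad9 (20 and 10), the target Id2 (26 and 21) and the latent TGF-beta binding protein gene Ltbp3, with 2 sites, were the others. Only Bmp5 and Chrdl1 had no P8 peak at either end.

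In the FGF and IGF list, 7 of 21 genes (33.3%, 17.2 to 54.6) had a site, against 15.8% of all genes. Per site, 8 of 55 (14.5%, 7.56 to 26.2) were P0 only, with 2.62 gene-end sites per gene and an interval that held the 10.1% of all. Of the receptors, Fgfr2 had 28 and 19 tags with 5.99- and 5.45-fold enrichment at 535 bp beyond its far end. Fgfr3, the receptor that slows growth-plate proliferation, had 26 and 20 tags with 3.28- and 3.38-fold. Fgfr4 had 2 sites and was the one gene of the list without a P8 peak at its ends. Sites at the ligand genes Fgf2 (19 and 12 tags) and Igf2 (39 and 28) and at the feedback inhibitor genes Dusp6 (35 and 22) and Spry2 (30 and 21) completed the list.

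Of the Wnt list, 9 of 41 genes (22.0%, 12 to 36.7) had a site, against 15.8% of all genes, and 9 of 78 sites (11.5%, 6.19 to 20.5) were P0 only, close to the 10.1% of all gene-end sites. Wnt11, a ligand, had one over its start with 27 and 21 tags and 4.66- and 4.89-fold enrichment. Lef1, a nuclear effector of the pathway, had 25 and 21 tags and 4.30- and 4.65-fold, and Wnt8a 15 and 16 tags and 5.80- and 7.42-fold. The antagonist gene Sfrp2 had 16 and 12 tags and, like Wnt3, Wnt8a and Wnt11, no P8 peak at either end.

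**Figure D4:**
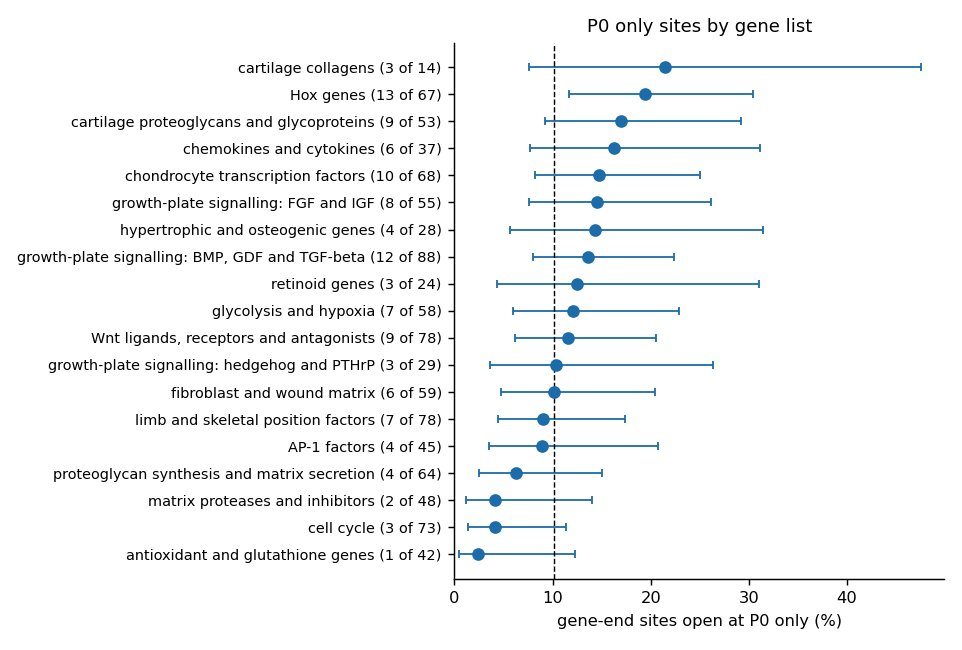
Percentage of gene-end sites that were P0 only in each gene list (horizontal axis), with 95% Wilson intervals as bars and the site counts in brackets. The dashed line is the 10.1% of all gene-end sites; 18 of the 19 intervals hold it, and that of the Hox genes runs from 11.7% to 30.4%.

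Transcription factors of body position were grouped in 2 lists. P0 only sites lay at 13 of 29 Hox genes (44.8%, 28.4 to 62.5, with 2.45 gene-end sites per gene), and 13 of 67 Hox sites (19.4%) were P0 only, against 10.1% of all gene-end sites. Hox genes, which encode position along the body axis, lie close together, so that 1 site of 15 and 14 tags served both Hoxa5 and Hoxa6. Hoxb13 had the strongest, over an end of the gene, with 18 and 16 tags and 7.75- and 7.76-fold enrichment. Hoxa7 had 33 and 30 tags but 3.78- and 4.40-fold, and Hoxc9 had 2 sites, with 27 and 20 tags at the stronger. Hoxa6, Hoxa7, Hoxb5 and Hoxb13 had no P8 peak at either end. In the list of other limb and skeletal position factors, 7 of 78 sites (8.97%) were P0 only, among them 2 at Tbx15 and 2 at Shox2.

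P0 only sites were not confined to cartilage genes. Of the fibroblast and wound matrix list, 5 of 30 genes had one and 6 of 59 sites (10.2%, 4.75 to 20.5) were P0 only, with an interval that held the 10.1% of all gene-end sites. Pdgfra, a growth factor receptor of mesenchymal cells, had 2, and the stronger lay 560 bp beyond its far end with 23 and 19 tags and 9.48- and 9.15-fold enrichment. No P8 peak was listed at either end of Pdgfra, which is also one of the fibroblast markers. Loxl1 (29 and 24 tags), Thbs1 (42 and 35), Col5a2 (22 and 12) and Pdgfrb (10 and 14) were the other genes. Of the AP-1 list, 4 of 19 genes had a site and 4 of 45 sites (8.89%, 3.51 to 20.7) were P0 only, against 15.8% of all genes and 10.1% of all sites. P8 only sites lay at 2 AP-1 genes, 2 genes of the chemokine and cytokine list and 1 of the antioxidant list. Over all gene-end sites 0.55% were P8 only, and the share of all genes with one was not computed. The P0 only sites of the AP-1 list lay at Fosb with 35 and 33 tags, Jund with 35 and 28, Jun with 48 and 39 and Maf with 24 and 18. AP-1 factors respond to stress and growth signals, and their 4 sites had enrichment from 2.44- to 4.06-fold. Each of the 4 AP-1 genes kept a P8 peak at one of its ends.

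Shares below the 10.1% of all gene-end sites, with intervals that held it, were found in the antioxidant, cell cycle, matrix protease and proteoglycan synthesis lists. Of 73 cell cycle sites 3 (4.11%, 1.41 to 11.4) were P0 only, and of 42 antioxidant and glutathione sites 1 (2.38%, 0.421 to 12.3). The site 134 bp beyond Trp53, the p53 tumour suppressor gene, was strong among them, with 21 and 24 tags and 8.56- and 11.3-fold enrichment. Matrix proteases had 2 of 48 (4.17%, 1.15 to 14.0), at the aggrecanase gene Adamts5 (21 and 18 tags) and at Adamts15 (10 and 10). Proteoglycan synthesis genes had 4 of 64 (6.25%, 2.46 to 15), of which the site at Ugdh, an enzyme that makes the sugar precursor of glycosaminoglycans, had 36 and 33 tags.

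Glycolysis and hypoxia genes had 7 of 58 sites P0 only (12.1%, 5.97 to 22.9), against 10.1% of all gene-end sites. The interval of this list and those of the chemokine and retinoid lists below held that share. Slc2a1, the glucose transporter GLUT1, had a site beyond its far end with 24 and 21 tags and 5.08- and 5.68-fold enrichment. Car9, a carbonic anhydrase induced by low oxygen, had 2, with 24 and 22 tags at the stronger, and the glycolytic enzyme gene Tpi1 had 1 with 43 and 33 tags. Chemokine and cytokine genes had 6 of 37 (16.2%, 7.65 to 31.1), among them Cxcl2 (22 and 19 tags), Cxcl3 (17 and 18) and Csf2 (16 and 12). Retinoid genes had 3 of 24 (12.5%, 4.34 to 31). They lay at Aldh1a2, an enzyme of retinoic acid synthesis (13 and 18 tags), and at the binding protein genes Crabp1 (11 and 12) and Crabp2 (17 and 10).

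Markers of cells other than chondrocytes also held P0 only sites. Of the marker genes with a gene-end site, 1 of 3 blood, 1 of 4 endothelial, 2 of 5 muscle and 1 of 7 fibroblast genes had one. The share over all genes was 15.8%. In the same order, 2, 2, 1 and 4 of these marker genes had a site open in all 4 libraries. The P0 only sites lay at Cd68 of the blood list (26 and 25 tags, also within 1 kb of Eif4a1), Tie1 of the endothelial list (11 and 10), Acta1 and Des of the muscle list (9 to 13) and Pdgfra, given above. The part of such cells in the P0 only sites was not tested.

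The 12 strongest P0 only sites, ranked by the smaller of the 2 P0 values at the lowest background, lay at Ube2e2, Pcdh20, Apela, A2m, Trappc3l, Defb45, Tmprss4, Slco4c1, Vta1, Atxn7, Dusp14 and Adarb2. Ube2e2, a ubiquitin-conjugating enzyme gene, came first, with 34 and 28 tags and 14.3- and 12.4-fold enrichment at chr14:18572932-18573227, 336 bp beyond its far end. Pcdh20, a protocadherin of cell adhesion, had 41 and 46 tags and 10.1- and 12.1-fold enrichment. At Apela the site covered the start, with 34 and 38 tags and 12.1- and 14.4-fold enrichment. A2m, a plasma protease inhibitor, had 35 and 29 tags and 11.3- and 11.2-fold.

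Trappc3l (32 and 28 tags), the beta-defensin gene Defb45 (30 and 24), the membrane protease gene Tmprss4 (32 and 24) and Slco4c1 (32 and 25) followed, all between 10.4- and 12.7-fold. Vta1, which acts in endosomal sorting, had 27 and 28 tags, Atxn7, a subunit of a histone acetyltransferase complex, 31 and 33, the phosphatase gene Dusp14 41 and 33, and Adarb2 28 and 23. Dusp14 had the lowest enrichment of the 12, at 7.45- and 7.48-fold. Of the 12, 6 lay at far ends, 4 at starts and 2 at genes of unknown strand. None of the 12 genes was on a cartilage, growth-plate or fibroblast list.

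Some genes had runs of P0 only sites. Gm266 had 4 of its 4 gene-end sites P0 only, each of 7 to 12 tags. Adarb2 had 3 of 3 within 1 kb of its start, Tacr1, a tachykinin receptor gene, 3 of 4 with 12 to 19 tags, and Spon1, a secreted adhesion protein gene, 3 of 4 with 8 to 18 tags. None of these 4 genes had a P8 peak at its ends. Kcng3 and Dio2, the deiodinase that activates thyroid hormone, had 3 of 5 each and kept P8 peaks at 2 and 1 of the others. Duoxa1 and Gm3239 had 3 of 4, and Gm3239 belongs to a set of near-identical genes on chromosome 14, so its reads may be shared with its copies.

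The chromatin around these genes was described by the peaks away from gene ends. Peaks within 50 kb and more than 1 kb from any gene end numbered 11.3 and 9.28 per gene in P0 A and P0 B, and 6.08 and 7.18 in P8 A and P8 B, at the 2392 genes with a P0 only site. At 11410 genes with a gene-end site open in all 4 libraries and no P0 only site the values were 10.6, 8.66, 6.02 and 7.03. Both sets of genes thus had more peaks at P0, by 1.55 times (10.3 ± 1.44 against 6.63 ± 0.778, SD, n = 2) and 1.48 times. The peak lists as a whole were also longer in the deeper P0 libraries, with 145703 and 119974 peaks against 89610 and 99784 at P8. The ratio of the first set to the second was 1.068 ± 0.00518 at P0 and 1.015 ± 0.00781 at P8. Taking as comparison all 12716 genes with a gene-end site and no P0 only site, whether or not they had a P8 peak, the ratio was 1.072 and 1.079 in the P0 libraries and 1.019 and 1.031 in the P8 libraries. Both gene sets were defined by peak calls in these same libraries, the first for lacking P8 peaks at some sites, so the direction of this difference is not independent of the rule and is given as a description.

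Gene-end sites open in all 4 libraries were compared in the same way. At the 1627 that lay at genes with a P0 only site the median pileup was 42, 36, 21 and 23 tags in P0 A, P0 B, P8 A and P8 B, against 44, 38, 22 and 25 over all 13792. The ratio was 0.951 ± 0.00508 at P0 and 0.937 ± 0.0244 at P8 (SD, n = 2), and the passages overlapped (exact permutation test, two-sided, p = 1, where the smallest that 2 against 2 libraries can give is 0.3333). No difference between passages was detectable in this measure with 2 libraries each, and its direction turned at matched background, where P0 was 0.993 times P8.

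**Figure D5:**
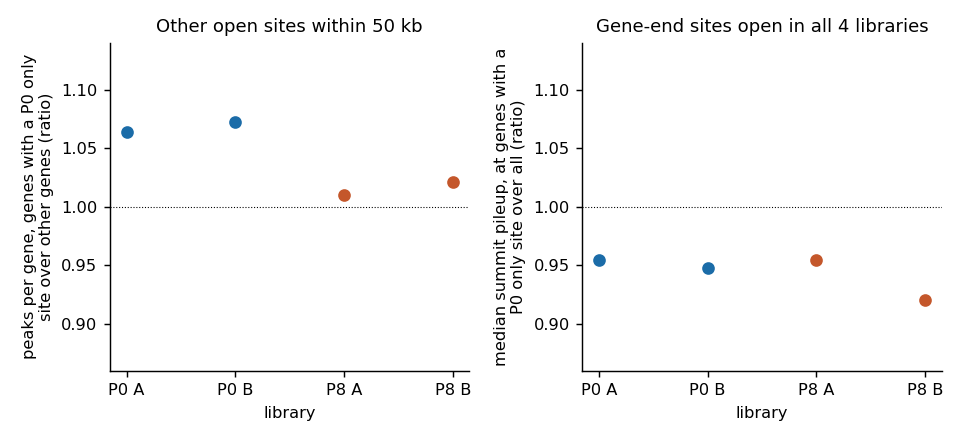
Each point is 1 library. Left: peaks within 50 kb per gene and away from gene ends, genes with a P0 only site over other genes; the P0 libraries sit at 1.064 and 1.072 and the P8 libraries at 1.010 and 1.021. Right: median summit pileup of gene-end sites open in all 4 libraries, at genes with a P0 only site over all; the libraries lie from 0.920 to 0.955 and overlap.

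Promoters under P0 only sites had a CpG content near that of all promoters and below that of promoters open throughout. Of 21045 reference windows reaching from 250 bases before to 50 after a start, 509 overlapped a P0 only site and 11639 a site open in all 4 libraries. The median observed over expected CpG ratio was 0.587 in the former, 0.786 in the latter and 0.193 in 7780 windows with no site, and a ratio of at least 0.6 was found in 48.9% (44.6 to 53.3), 77.0% (76.3 to 77.8) and 6.30%. Over all 21045 windows the median was 0.574 and the share 48.1% (47.5 to 48.8), so windows under P0 only sites were near the whole set of promoters in CpG. Strength rose with CpG too. Within a class of strength the difference was not uniform, since from 10 to 15 on the -log10 p scale 5.27% (3.65 to 7.56) of CpG-poor and 1.95% (1.25 to 3.03) of CpG-rich windows had a P0 only site and no P8 peak, while under 5 the shares were 47.8% (40.7 to 55.0) and 58.0% (49.0 to 66.5).

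The letters of 12 motifs were counted in the same windows. The ETS site CCGGAAG stood in 4.32% (2.87 to 6.46) of windows over a P0 only site, against 18.9% of those open throughout and 11.7% of all 21045 windows. The GC box GGGCGG stood in 56.4%, 68.5% and 46.7%, and the CCAAT box in 31.8%, 38.8% and 38.5%. The TATA box was found in 8.45% (6.33 to 11.2), against 5.91% of windows open throughout and 12.7% of all. The RUNX site TGTGGT stood in 11.8%, 11.3% and 14.7%, and the SOX site ACAAAG in 12.2%, 12.1% and 16.8%, with intervals of the first share that held the second. The AP-1 site TGACTCA was found in 5.31% (3.67 to 7.61), 3.50% and 4.69%, and the TEAD site GGAATG in 15.3% (12.5 to 18.7), 11.3% and 13.5%. For the E-box the shares were 6.88%, 10.4% and 7.91%, for the NFI site 11.8%, 10.4% and 13.1%, for the CRE letters TGACGTCA 1.57%, 3.39% and 2.26%, and for the second SOX form ATTGTT 5.50%, 4.92% and 8.91%.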

How the data were processed

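ATAC-seq was analysed in 4 libraries, 2 at P0 and 2 at P8. According to the methods and the processing notes, the authors aligned 50 bp paired-end reads with Bowtie2 to mm10 and called peaks with MACS2 on each library at default parameters, and versions are not given in the sources used here. For each peak the authors deposited the summit pileup, a signal in tags not scaled for depth, the fold enrichment over local background, a ratio within the library, and the -log10 of its Poisson p-value. A further deposited table held log2 fold changes with p-values and FDR of the authors' own comparison and was not used. No per-library column was left unused (0 columns).

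Peaks overlapping by 1 bp were merged. Libraries were told apart by the prefix of the peak names. Genes and promoters came from RefSeq (GRCm38.p6), strand was known for 17274 genes, and exons and introns were not annotated here. The background of each peak was computed from pileup and fold enrichment. In the matched setting, every library was given the genome-wide background of the shallowest one, the Poisson -log10 p was recalculated, and 3.38 was the minimum for a peak. Shares carry 95% Wilson intervals, and libraries were compared by an exact permutation test. Members and gene lists were chosen with earlier results of these data known. Genes named were the 12 strongest, those on the lists (in full for cartilage, growth-plate, fibroblast and AP-1 lists, up to 3 otherwise, with further genes lacking P8 peaks named after their values were seen), 8 genes with most sites and those at the limits. Alternatives were other thresholds, distances, gaps, gene sets and windows, and leaving out each library. Merging and placing were tested on simulated data (2000 sites and 300 distances, 100% recovered). Python 3.11.15 was used with numpy 2.4.6, pandas 2.3.3, scipy 1.17.1 and matplotlib 3.10.9.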

Additional observations from a re-analysis of the deposited data

How the results depend on the processing

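The number of P0 only gene-end sites and their 10.1% share moved by under 1.5 times and 1 percentage point at matched background (2370 sites, 9.89%), with a -log10 p of at least 5 (2247, 9.82%), with the site's midpoint (2281, 9.96%) and with peaks up to 200 bp apart joined (1734, 9.38%). Requiring a -log10 p of at least 10 at P0 left 373 sites (1.97%). A distance of 500 bp gave 1589 (8.79%), 3 kb gave 4475 (12.3%) and genes of every biotype 4019 (11.96%). Leaving out 1 library gave 3070 to 5984 sites and 12.7% to 24.7%, with 4234 without P0 A, 5984 without P0 B and 3697 without P8 B, since fewer libraries had to meet the rule. The share at gene starts, 71.9%, was 75.7% at 500 bp, 60.8% at 3 kb and 72.1% to 76.0% with 1 library left out. The ratio of P0 to P8 for other peaks near the genes, 1.052, was 1.035 to 1.041 with 1 library left out, 1.058 at 20 kb, 1.043 at 100 kb and 1.049 against every gene without a P0 only site, an alternative chosen after seeing the data. For gene-end sites open in all 4 libraries the ratio of 1.015 became 0.993 at matched background and 0.964 to 1.029 with 1 library left out, reversed without P8 A (0.964). The cause was not tested. No paired analysis was possible because the peak names carry no replicate numbers. The peak lists used here give no value where no peak was called, so depth limits what absence at P8 can show.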

Other observations

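Gene families were grouped by the letters that start their symbols, a grouping chosen after values had been seen, and 36 families had at least 30 genes with a gene-end site. Solute carriers (Slc) had a P0 only site at 60 of 286 such genes (21.0%), against 15.8% of all genes. Of the 60, 16 had no P8 peak at either end, against 777 of all 2392 genes with a P0 only site (32.5%). Cytochrome P450 genes (Cyp) had them at 9 of 35 (25.7%), leucine-rich repeat genes (Lrrc) at 14 of 56 (25.0%) and olfactory receptor genes (Olfr) at 7 of 30 (23.3%). Zinc finger genes (Zfp) had them at 28 of 344 (8.14%). Shares were lower still for Ttc, Arhgap, Mrpl, Ddx, Rps and Usp genes, the last with 1 of 44 (2.27%). Gene families differ in the number and strength of their open sites, and no family was tested.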
